A study of Rattus norvegicus with 18 samples.

Results

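Alb, Ttr, Fgb, Fgg and Apoa2 encode proteins that the liver secretes into the blood, and their RNA was followed here in libraries of rat gastrocnemius, a calf muscle. The genes were given as 6 identifiers, each with a symbol and a chromosome, and an identifier lying on another chromosome in the deposited table was to be dropped. This left 5 of the 32883 genes of the table. The 1 dropped was ENSRNOG00000024798, given as Fga on chromosome 2, which the table places at chr15:83442144-83463717.

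All animals were male Brown Norway rats (BN/SsNOlaHSD) without a transgene, and each of the 3 groups held 6 libraries. The young group was 6 months old and fed ad libitum (AL). The aged AL group was 28 months old and also fed AL, and the aged CR group, of the same age, had been kept under caloric restriction from 2 months on, at 55% of the AL intake. The libraries held 17335401 to 27432767 counts each. Libraries of the aged CR group that could be tied to the group but to no single rat are called by their numbers, 8826, 8827 and 8828.

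Each group had its own block of library numbers (8773 to 8780 for aged AL, 8822 to 8828 for aged CR, 8883 to 8888 for young), and if the blocks were handled separately, handling and group cannot be told apart. Rat 8 (aged AL) and library 8828 (aged CR) stood apart from their groups across many genes. Values are counts scaled to a common library total (CPM). Of the 14328 genes with at least 1 CPM in rat 8, 1682 were, after TMM scaling (an adjustment for the make-up of each library), at least 2 times higher there than in every other aged AL library, and for library 8828 the count was 827 of 13358. The symbols come with the list of identifiers, because the files pair no identifier with a name. For that reason muscle markers and other liver genes were not analysed here.

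Hepatocytes are the main source of plasma proteins, and liver-enriched transcription factors such as HNF1, HNF4 and C/EBP drive the genes that encode them. Albumin, the product of Alb, is the most abundant plasma protein and keeps fluid in the vessels. Transthyretin (Ttr) carries thyroxine and retinol-binding protein and is also made by the choroid plexus of the brain. Fgb and Fgg encode the beta and gamma chains of fibrinogen, the soluble precursor of the fibrin clot, whose alpha chain is encoded by Fga. Apolipoprotein A-II (Apoa2) is a protein of high-density lipoprotein. Skeletal muscle is not known for making these proteins. Their RNA in a muscle library therefore bears on whether RNA of another tissue was present, and in whole-muscle RNA more cells of a type and more RNA per cell cannot be told apart.

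In the table, which uses the Rnor_6.0 build, Alb (ENSRNOG00000002911) lies at chr14:19176277-19191863 on the minus strand, with 15 exons and 2069 exonic bases. Ttr (ENSRNOG00000016275) lies at chr18:15532963-15540177 on the minus strand, with 4 exons and 701 exonic bases. Fgb (ENSRNOG00000007092) lies at chr2:182027115-182038178 on the minus strand with 10 exons and 2895 exonic bases, and Fgg (ENSRNOG00000025074) at chr2:181987217-181994514 on the plus strand with 10 exons and 1544 exonic bases. Apoa2 (ENSRNOG00000003500), at chr13:89597138-89598802 on the plus strand, has 3 exons and the shortest exonic length, 440 bases. None of the 5 genes overlapped another gene of the table.

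The promoters are shown because the 5 genes were high in the same rat, rat 9, and higher together in aged rats fed AL. RefSeq's table for the GRCr8 build held an entry for 4 of the 5 genes, Alb, Ttr, Fgb and Fgg. The 150 bases before each annotated start are printed along the strand of the gene, and capitals mark matches to the motifs named after them. The stretches are chr14:17906980-17907129 (minus) for Alb, chr18:12218608-12218757 (plus) for Ttr, chr2:170700876-170701025 (minus) for Fgb and chr2:170652933-170653082 (plus) for Fgg. The builds differ in the strand they give for Ttr.
Alb: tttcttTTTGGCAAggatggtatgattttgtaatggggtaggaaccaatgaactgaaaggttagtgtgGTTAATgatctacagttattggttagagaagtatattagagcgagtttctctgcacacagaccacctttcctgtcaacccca
Ttr: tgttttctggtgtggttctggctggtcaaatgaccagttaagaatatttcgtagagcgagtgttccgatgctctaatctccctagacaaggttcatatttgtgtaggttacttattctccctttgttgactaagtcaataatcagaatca
Fgb: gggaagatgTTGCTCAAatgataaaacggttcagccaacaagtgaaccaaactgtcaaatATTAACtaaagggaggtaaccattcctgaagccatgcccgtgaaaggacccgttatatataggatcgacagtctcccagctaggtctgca
Fgg: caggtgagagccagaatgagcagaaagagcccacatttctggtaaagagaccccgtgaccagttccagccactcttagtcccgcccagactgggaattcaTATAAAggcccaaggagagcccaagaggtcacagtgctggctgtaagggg

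Motifs were searched on both strands in the 250 bases before the start. The short HNF1 motif GTTAAT occurred 82 bases before the start of Alb and, on the opposite strand, 90 bases before that of Fgb. It occurred in 6.46% of the 33365 promoters of the table. The C/EBP motif TTGCNNAA occurred 144 bases before Alb, on the opposite strand, and 141 bases before Fgb, and in 9.21% of all promoters. The TATA box TATAAA was matched 50 bases before Fgg and in 12.9% of all promoters. The HNF4 motif CAAAGTCCA (0.339% of all promoters) and the full HNF1 palindrome, which contains the short motif and was found in 1 of the 33365 promoters, were matched in none of the 4. Ttr had no match to any of these letters in this window.

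**Figure D1:**
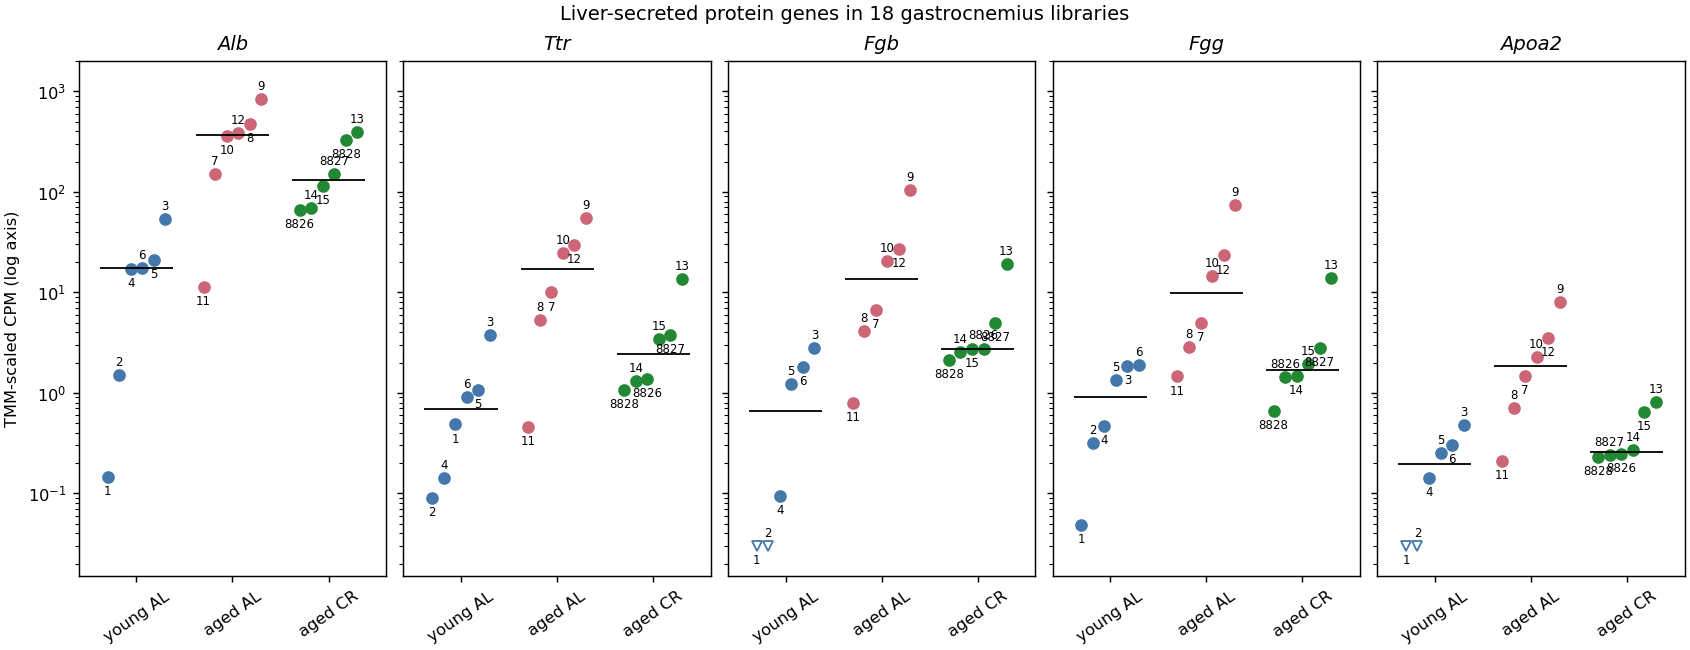
TMM-scaled CPM (vertical log axis) of the 5 genes in each of 18 libraries, labelled by rat or library number and ordered by value within a group, with a line at the median of the group. Open triangles at the foot are libraries with 0 counts. Rat 9 is the highest and rat 11 the lowest aged AL library in every panel, and rat 11 sits among the young rats.

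Levels are given as CPM scaled by TMM factors. In young rats Alb, the albumin gene, had 18.5 ± 19.3 CPM (SD, n = 6), from 0.145 in rat 1 over a median of 17.3 to 53.6 in rat 3. In aged AL rats it had 368 ± 284 CPM (SD, n = 6), from 11.2 in rat 11 over a median of 370.0 to 835 in rat 9. In aged CR rats the value was 187 ± 140 CPM (SD, n = 6), from 65.6 in library 8826 over a median of 132 to 393 in rat 13. All 6 aged CR libraries and 5 of the 6 aged AL libraries lay above every young rat. Rat 11, the exception, had 270 counts of Alb, against 3 in rat 1 and 16498 in rat 9.

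Ttr, the carrier of thyroxine, had 1.08 ± 1.38 CPM (SD, n = 6) in young rats, from 0.0905 in rat 2 to 3.77 in rat 3 with a median of 0.696. In aged AL rats it had 20.8 ± 20.1 CPM (SD, n = 6), with 0.457 in rat 11, a median of 17.2 and 54.6 in rat 9. In aged CR rats it had 4.09 ± 4.79 CPM (SD, n = 6), with 1.08 in library 8828, a median of 2.42 and 13.6 in rat 13. For this gene 5 of 6 aged AL libraries lay above every young rat. Of the aged CR libraries 1, rat 13, did so, but without TMM scaling there were 3, with rat 15 and library 8827.

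The fibrinogen genes were also highest in rat 9 among aged AL rats and in rat 13 among aged CR rats. Fgb, the beta chain, had 0.992 ± 1.17 CPM (SD, n = 6) in young rats, from 0 in rats 1 and 2 over a median of 0.661 to 2.82 in rat 3. In aged AL rats it ran from 0.790 in rat 11 over a median of 13.5 to 103.2 in rat 9 (27.1 ± 38.7, SD, n = 6). In aged CR rats it ran from 2.13 in library 8828 over a median of 2.74 to 19.2 in rat 13 (5.72 ± 6.69, SD, n = 6). Of the aged CR libraries 2, rat 13 and library 8827, lay above all young rats, and without TMM scaling all but rat 14 did (5 of 6). A count of 0 in rats 1 and 2 allows up to 3 counts, or 0.132 and 0.138 CPM without TMM scaling, for counting error alone.

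Fgg, the gamma chain, had 0.992 ± 0.816 CPM (SD, n = 6) in young rats, from 0.0484 in rat 1 over a median of 0.912 to 1.90 in rat 6. In aged AL rats it had 20.2 ± 27.7 CPM (SD, n = 6), from 1.46 in rat 11 over a median of 9.79 to 74.1 in rat 9. In aged CR rats it had 3.69 ± 5.03 CPM (SD, n = 6), from 0.654 in library 8828 over a median of 1.70 to 13.9 in rat 13. The groups overlapped, since rat 11 lay within the young range and 3 of the 6 aged CR libraries did as well.

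Apoa2, the apolipoprotein, had 0.196 ± 0.187 CPM (SD, n = 6) in young rats, from 0 in rats 1 and 2 over a median of 0.197 to 0.479 in rat 3. In aged AL rats it had 2.69 ± 2.85 CPM (SD, n = 6), from 0.208 in rat 11 over a median of 1.87 to 7.99 in rat 9. In aged CR rats it had 0.407 ± 0.255 CPM (SD, n = 6), from 0.229 in library 8828 over a median of 0.258 to 0.815 in rat 13. Here 4 aged AL libraries, those of rats 7, 9, 10 and 12, lay above every aged CR library, and without TMM scaling rat 8 did as well.

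Between genes, levels were compared as TPM, which is like CPM but first divides each count by exonic length. Alb had the highest TPM of the 5 genes in 17 of 18 libraries, and Ttr was second in 14. In rat 1 the order was reversed, with 1.2 TPM of Ttr and 0.122 TPM of Alb, values that rest on 10 and 3 counts. The median TPM in aged AL rats was 284 for Alb, 41.1 for Ttr, 10.5 for Fgg, 7.69 for Fgb and 7.26 for Apoa2. Within each of the 6 aged AL libraries Fgg was above Fgb, with 0.290 to 0.782 TPM of Fgb per TPM of Fgg. The place of Apoa2 varied, since it lay above Fgb in rats 7, 8 and 11 and below it in rats 9, 10 and 12. In rat 9 Alb reached 659 TPM and ranked 158th of the 25904 genes of at least 300 bases. In rat 1 it ranked 15873rd.

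Together the 5 genes took 0.105% of the counts of rat 9 (Wilson 95% interval 0.104 to 0.107%, counting error only). The share was 0.0694% in rat 8, 0.0470% in rat 12, 0.0395% in rat 10, 0.0198% in rat 7 and 0.00146% in rat 11. Among aged CR libraries it was 0.0451% in rat 13 and 0.0371% in library 8828, and the other 4 lay between 0.00656% and 0.0138%. Among young rats the highest share was 0.00523%, in rat 3, and the lowest 6.16e-05%, in rat 1. Rat 11 thus lay below 4 of the 6 young rats.

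The question of the comparison between aged and young rats fed AL is what ageing changed in the muscle. All 5 genes were higher in aged rats fed AL. The fitted log2 fold change was 4.32 for Alb (20.0-fold, standard error 0.98, adjusted p = 0.0194). The test was the quasi-likelihood test of edgeR, and p-values were adjusted by Benjamini-Hochberg over 14646 genes. It was 4.32 for Ttr (19.9-fold, standard error 0.98) and 4.79 for Fgb (27.7-fold, standard error 1.11), with adjusted p of 0.0194 and 0.0218 in the same edgeR test. For Fgg it was 4.35 (20.4-fold, standard error 1.001, adjusted p = 0.0207) and for Apoa2 3.77 (13.6-fold, standard error 0.81, adjusted p = 0.0142).

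Calls required a fold change of 1.5 or more and an adjusted p no higher than 0.05, so 5 of 5 genes were called higher. Over all genes tested, 3.39% were called in this comparison and 1.88% were called higher. The median log2 fold change was 4.32 over the 5 genes and 0.01 over all genes tested. The standard errors, 0.81 to 1.11, were large beside the median of 0.19 over all genes. The groups overlapped for all 5 genes because of rat 11, whereas 1.28% of all genes tested were higher without overlap. In each of the 5 genes, 5 of 6 aged AL libraries lay above every young rat. DESeq2's Wald test called all 5 higher too, where it called 3.03% of its genes higher. With edgeR on only these groups, Alb (adjusted p = 0.0522) and Fgb (adjusted p = 0.0505) were not called and Apoa2 did not pass the filter on low counts.

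The size of these differences rested in part on rats 9 and 3. Without rat 9 the log2 fold changes were 3.59 for Fgb (adjusted p = 0.0655) and 3.25 for Fgg (adjusted p = 0.0593), which were then not called in edgeR's test. Alb (adjusted p = 0.0432), Ttr (adjusted p = 0.0495) and Apoa2 (3.05, adjusted p = 0.0414) remained called in it, near the threshold. Without young rat 5 all 5 genes were called, with adjusted p in edgeR's test up to 0.0474, for Fgb. Without rat 3, the young rat with the highest Alb, Ttr, Fgb and Apoa2, the log2 fold change was 5.01 for Alb, 5.25 for Ttr and 5.39 for Fgb, and all 5 genes were called. When rats 8 and 9 and library 8828 were all left out, a setting chosen after the values were seen, all 5 genes were called, with log2 fold changes from 3.24 to 3.97.

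**Figure D2:**
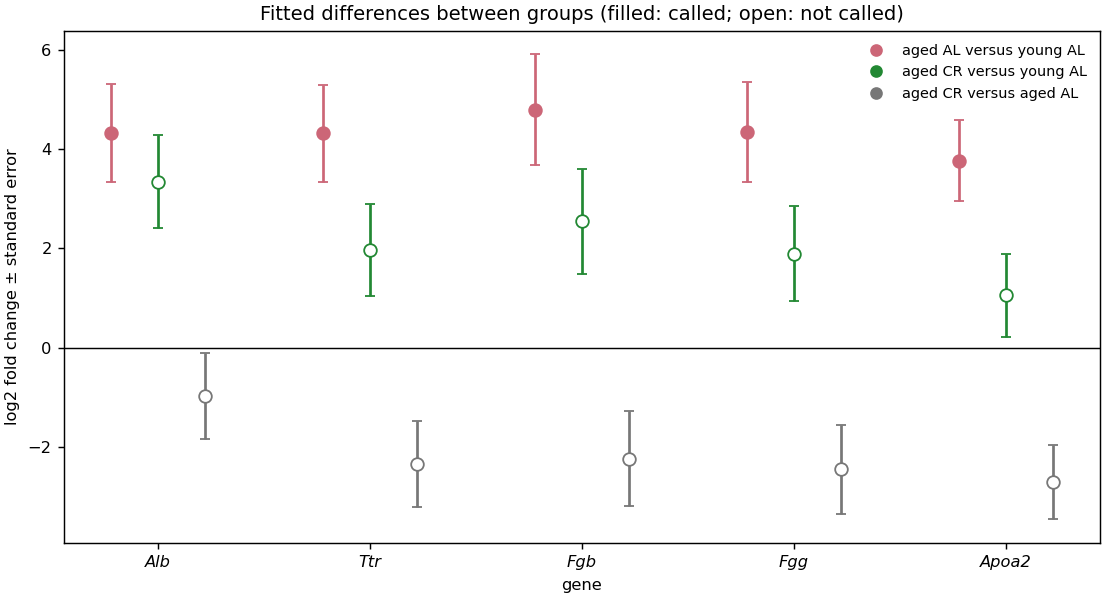
Fitted log2 fold change with its standard error (vertical axis) for the 5 genes in the 3 comparisons between groups, from edgeR's fit of all 18 libraries. Filled points are called genes. The aged AL against young points lie between 3.77 and 4.79 and are all filled, and the points of the other comparisons are all open.

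The comparison of aged CR rats with young rats fed AL changes age and diet together, and it cannot separate them. Alb had a log2 fold change of 3.34 (10.1-fold, standard error 0.94, unadjusted p = 0.00214, adjusted p = 0.0613 in edgeR's test). It missed the threshold although the groups did not overlap, as was the case for 1.65% of all genes in the direction of a higher value. The log2 fold change was 1.97 for Ttr (standard error 0.94, adjusted p = 0.258), 2.55 for Fgb (standard error 1.06, adjusted p = 0.196), 1.89 for Fgg (standard error 0.95, adjusted p = 0.285) and 1.05 for Apoa2 (standard error 0.83, adjusted p = 0.521). Rat 13 weighed on these values, and without it they were 1.06 for Ttr, 1.63 for Fgb and 0.73 for Fgg. Without young rat 3 they were 4.02 for Alb and 2.89 for Ttr. None of the 5 genes was called in edgeR's fit of all libraries, where 1.98% of all genes were called and 0.765% were called higher. At an unadjusted p under 0.05, 3 of 5 (Alb, Ttr and Fgb) were higher, against 9.24% of all genes. DESeq2's Wald test called 1 of the 5, Alb (adjusted p = 0.010), where it called 1.62% of its genes higher. In edgeR's test Alb was also called after rat 8 or rat 11, both aged AL rats, had been removed, with adjusted p of 0.0410 and 0.0405, and in a fit of only the groups compared (adjusted p = 0.0400).

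Set against each other, the aged groups bear on what restriction changed in aged muscle. No gene of the 5 was called in edgeR's fit of all libraries. The log2 fold changes of aged CR against aged AL rats were -0.98 for Alb (standard error 0.86, adjusted p = 0.641), -2.35 for Ttr (standard error 0.87, adjusted p = 0.186) and -2.24 for Fgb (standard error 0.96, adjusted p = 0.263). They were -2.46 for Fgg (standard error 0.89, adjusted p = 0.176) and -2.72 for Apoa2 (standard error 0.75, adjusted p = 0.0687). Over all genes, 1.38% were called and 0.546% were called lower. At an unadjusted p under 0.05, 4 of 5 were lower, all but Alb, against 7.59% of all genes.

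The groups overlapped for all 5 genes, whereas 0.908% of all genes were lower in aged CR rats without overlap. DESeq2's Wald test called Apoa2 (adjusted p = 0.00824), where it called 1.21% of its genes lower. That call rests on low counts, since Apoa2 had 5 to 17 in the aged CR libraries. Rats 8 and 11 weighed on that gene, which edgeR's test called without rat 8 (adjusted p = 0.0301) and without rat 11 (adjusted p = 0.0407). The sizes moved in opposite directions with rats 9 and 13. Without rat 9 the log2 fold change was -1.05 for Fgb, -1.35 for Fgg and -1.99 for Apoa2, and without rat 13 it was -3.17 for Fgb, -3.62 for Fgg and -3.25 for Ttr. The 3 comparisons draw on the same 3 groups and are not independent.

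**Figure D3:**
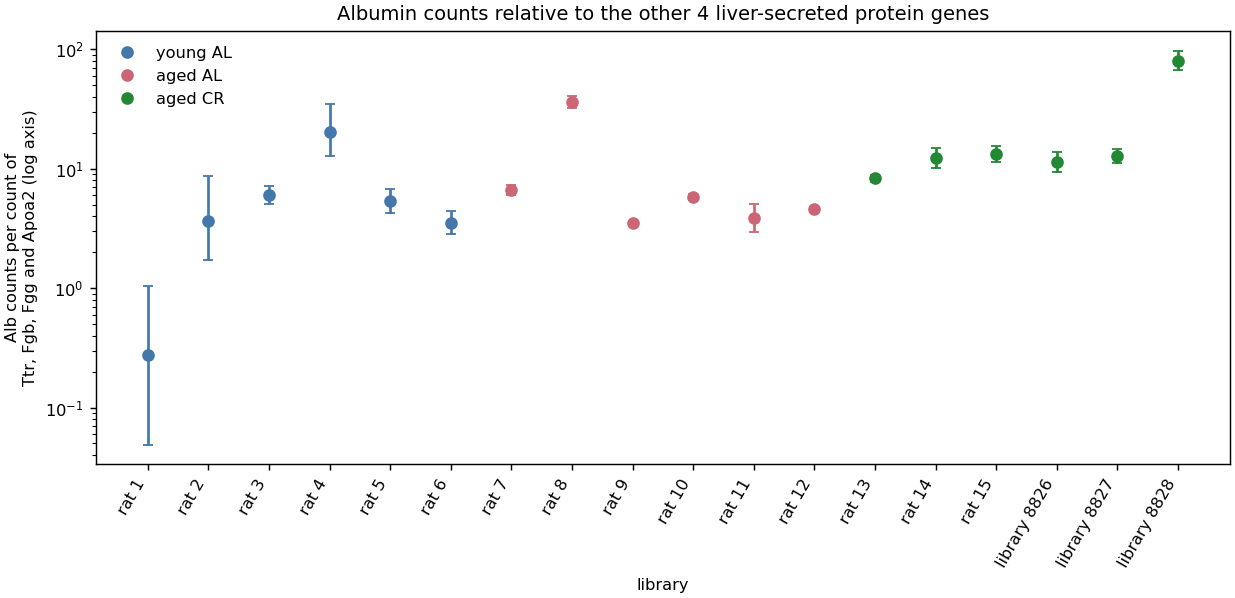
Counts of Alb per count of Ttr, Fgb, Fgg and Apoa2 together (vertical log axis) in each library, coloured by group, with exact 95% binomial intervals for counting error. Rat 8 stands at 36.2 and library 8828 at 80.4, above the other libraries of their groups.

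The balance among the genes was not the same in every library. Counts of Alb per count of the other 4 genes together were 3.48 to 6.59 in 5 aged AL libraries and 36.2 in rat 8. They were 8.28 to 13.2 in 5 aged CR libraries and 80.4 in library 8828. In young rats the ratio ran from 0.273 in rat 1, with 14 counts of the 5 genes in all, to 20.4 in rat 4. Alb made up 97.3% of the counts of the 5 genes in rat 8 and 98.8% in library 8828, against 77.7 to 86.8% in the other aged AL libraries and 89.2 to 92.9% in the other aged CR libraries.

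In rat 8, Alb was present at 472 CPM, which was 1.32 times the median of the other aged AL rats, while the other 4 genes lay at 0.194 to 0.310 of that median. In library 8828, Alb had 329 CPM, or 2.86 times the median of the other aged CR libraries, while Ttr lay at 0.312, Fgg at 0.339, Fgb at 0.770 and Apoa2 at 0.850 of it. Only Alb was thus above the group median in these libraries with TMM scaling. Rat 8 had the largest TMM factor, 1.44. Without TMM scaling of any library, Alb was 2.01 times the median of the others in rat 8 and 3.18 times in library 8828. On that scale the other 4 genes lay at 0.295 to 0.470 of the median in rat 8, and Apoa2 in library 8828 was 1.06 times its median.

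Side by side, library 8828 had 0.697 times the CPM of rat 8 for Alb, 0.510 for Fgb, 0.327 for Apoa2, 0.230 for Fgg and 0.202 for Ttr. The 5 genes therefore did not keep 1 ratio between these libraries. None of the genes was among the 1682 that were at least 2 times higher in rat 8 than in any other aged AL library. Genes were taken at 1 CPM or more without TMM scaling, and the ratio to the highest other library of the group was taken with it. Alb ranked 11145th of 14328 genes by that ratio (0.565), and the other 4 genes ranked from 14236th to 14321st. In library 8828, Alb ranked 6924th of 13358 with a ratio of 0.836, and of the genes that reached 1 CPM there (Alb, Ttr and Fgb) none was among the 827.

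Rats 9 and 13, in contrast, had several of these genes among those highest over their group. In rat 9, 156 of 12672 genes were at least 2 times higher than in every other aged AL library, and Fgb (3.79 times, 10th), Fgg (3.19 times, 29th) and Apoa2 (2.27 times, 112th) were among them. Ttr (1.83 times, 182nd) and Alb (1.77 times, 195th) came soon after. In rat 13, 140 of 12740 genes were at least 2 times higher than in every other aged CR library. Fgg (4.96 times, 19th), Fgb (3.92 times, 35th) and Ttr (3.62 times, 45th) were among these, and Alb (1.2 times, 561st) was not. Apoa2 was below 1 CPM in rat 13 and has no rank.

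Over all libraries, with TMM scaling, Ttr, Fgb and Fgg had the same leading order, with rats 9, 12, 10, 13 and 7 from the highest down. Without it, rat 13 lay above rat 10 for Fgb and Fgg but not for Ttr. The orders below are with TMM scaling. Apoa2 had rats 9, 12, 10, 7 and 13. Alb differed, with rats 9, 8, 13, 12 and 10. Rat 8 was second for Alb but 6th for Ttr, Fgg and Apoa2 and 7th for Fgb, and library 8828 was 6th for Alb but 12th to 15th for the others.

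**Figure D4:**
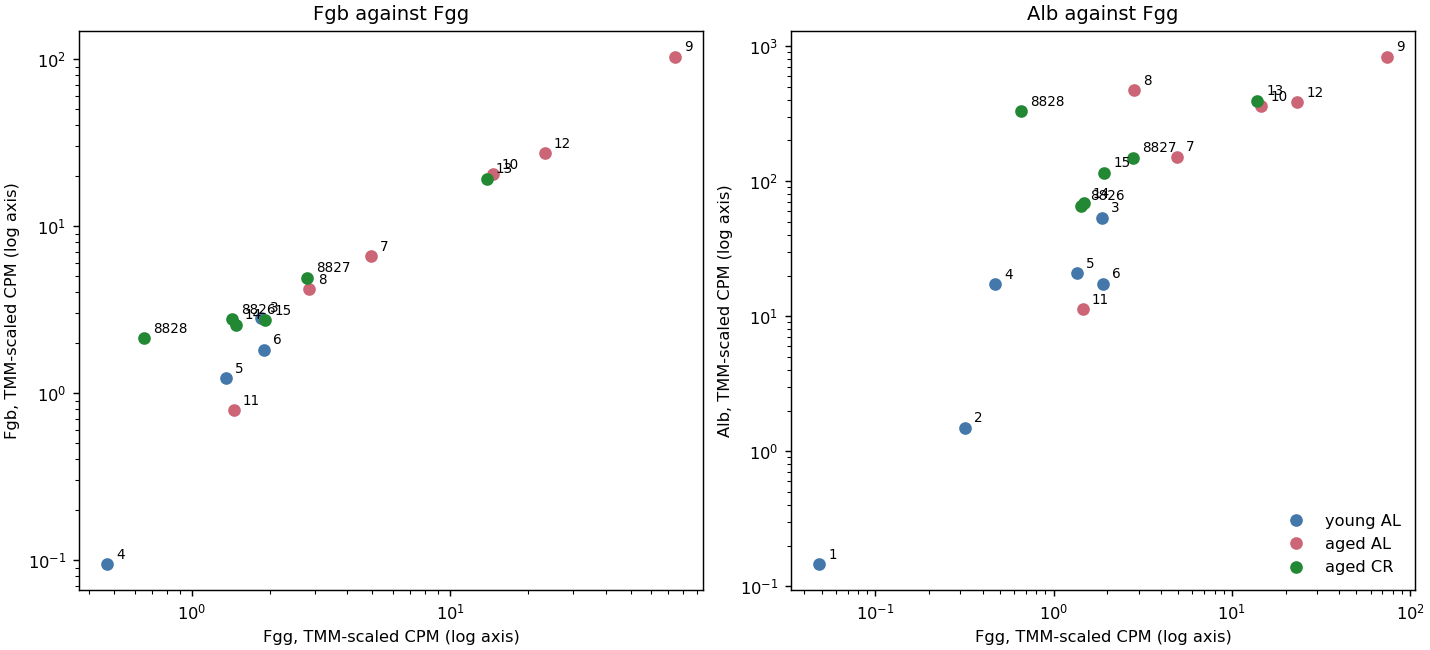
TMM-scaled CPM of Fgb (left) and Alb (right) against Fgg, both axes log, with 1 point for each library, labelled by rat or library number. Rats 1 and 2, with 0 counts of Fgb, are left out on the left. The libraries lie along a band for Fgb, while for Alb rat 8 (472 CPM) and library 8828 (329 CPM) lie above it.

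Likeness of profiles was measured as the root mean square difference of log2 CPM over 18 libraries, after centring each gene on its own mean. The points share libraries and low genes carry counting noise, so the values are a description. The measure is not scaled for the range of a gene. The root mean square of a gene's own centred profile ran from 1.64 for Apoa2 to 2.99 for Alb, so differences in range enter these values. The closest pair of the 5 was Fgg with Apoa2 (0.77), followed by Ttr with Fgb (0.89) and Fgb with Fgg (0.89). The pairs with Alb lay from 1.36 (with Fgb) to 1.94 (with Apoa2), and without rat 8 and library 8828 from 1.13 to 1.79. The pair of Fgb and Apoa2, at 1.28 and without these libraries 1.35, was then farther apart than Alb and Fgb. Against the mean profile of the 5 genes the difference was 0.54 for Fgb, 0.62 for Fgg, 0.69 for Ttr, 0.82 for Apoa2 and 1.32 for Alb, where a flat profile gives 2.23. Each of the 5 genes is part of that mean, which brings it nearer by construction. Even so, 9 genes outside the list lay closer to it than Fgb, the nearest of the 5.

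Of the 14646 genes tested, the nearest to that mean profile outside the list were ENSRNOG00000010410 at chr6:127996165-128003418 (difference 0.42) and ENSRNOG00000013704 at chr9:74124016-74236274 (difference 0.43). ENSRNOG00000010410 had 22.3 CPM in rat 9, 2.18 in rat 8, 1.77 in library 8828 and 0.541 in rat 11. ENSRNOG00000013704 had 74.2, 6.85, 2.16 and 0.832 CPM in the same libraries. Both were highest in rat 9 of these 4 libraries, which the choice of genes near the mean profile favours. The files give no name for either.

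The alpha chain of fibrinogen had no usable identifier, and ENSRNOG00000024798 did not behave like the other genes. It had mean values of 2.21, 2.14 and 2.17 CPM in young, aged AL and aged CR rats (SD 0.679, 1.01 and 0.362, n = 6 each) and was called in no comparison. The table holds a single gene between Fgg and Fgb, ENSRNOG00000024848, at chr2:182006242-182013763 on the plus strand, and it was looked at for its position after earlier values were known. It starts 11728 bases beyond the end of Fgg and ends 13352 bases before Fgb. ENSRNOG00000024848 may be the gene that was meant as Fga, but it carries no name here and its identity was not tested.

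ENSRNOG00000024848 had 2427 counts in rat 9, 24 in rat 11 and 0 in rat 1. Its log2 fold change between aged and young rats fed AL was 4.72 (standard error 1.12, adjusted p = 0.0235, edgeR's test), close to those of its neighbours. Between aged CR and young rats it was 2.16 (adjusted p = 0.272) and between the aged groups -2.56 (adjusted p = 0.200). In the 15 libraries with at least 10 counts of Fgg and Fgb, its TPM was 0.389 to 1.22 times that of Fgg (median 0.879), and the TPM of Fgb was 0.290 to 1.73 times that of Fgg (median 0.743). The lowest of both ratios belonged to rat 11 and the highest to library 8828, each resting on 65 or fewer counts of a gene.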

How the data were processed

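Ribosomal RNA was depleted from gastrocnemius RNA of 18 rats and strand-specific libraries were sequenced in pairs. Per the submitters' notes and the table's header, the authors trimmed reads with cutadapt 1.2.1, aligned them to Rnor_6.0 with STAR 2.3.0e and counted fragments per gene of annotation release 96 with featureCounts 1.6.4. The deposited values are these raw counts, without normalization. No strand option stands in the counting command, so antisense reads were not separated. The deposited gene lengths are a further column, from which TPM was computed here.

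Groups were taken from the sample labels, each label naming a separate rat. In 3 aged CR columns the sample and library numbers belong to different rats, so these entered their group with no rat assigned. Every column of sample values was used. The 5 genes and all lists were chosen with earlier results of these data known. Named besides them were the genes with the nearest profile, by the root mean square difference of log2 CPM (prior count 2) centred on each gene's mean, limited to 2 identifiers because the files carry no names. For the same reason the planned lists of liver, muscle, blood, fat, macrophage, endothelial, choroid plexus and kidney markers were not analysed here.

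In R 4.3.3 with edgeR 4.0.16, filterByExpr kept 14646 genes, which include all 5, libraries were TMM-scaled and all 18 entered 1 quasi-likelihood fit with group as its term. p-values were adjusted by Benjamini-Hochberg over all genes tested, and calls needed a fold change of 1.5 or more and an adjusted p no higher than 0.05. A standard error is the size of the log2 fold change over the square root of F. The fits were tested on simulated counts that gave every gene the same spread between libraries and changed only genes with higher counts. That setting does not cover genes that vary between rats as widely as these 5. It therefore does not show how the test behaves for them. Alternatives were DESeq2 1.42.0, the test the study names, fits of only the groups compared, other scalings and filters, an exact permutation test of ranks and leaving out libraries. Total counts were 17335401 to 27432767 per library. Intervals cover counting error only and leave out the spread between rats.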

Additional observations from a re-analysis of the deposited data

Results flagged for a closer look

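Within each group of 6 libraries, the gap between the library farthest out and its nearest neighbour was taken as a share of the range of the group, for the log2 CPM of each of the 5 genes and for the log2 of Alb counts per count of the other 4. In 2 of 18 groups this share was above Dixon's 95% critical value for 6 samples, where chance flags about 1 in 20, or 0.9 here. Both concern the balance between Alb and the other genes. Rat 8 stood apart among aged rats fed AL, with a share of 0.7271, and library 8828 among aged CR rats, with a share of 0.7965.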

How the results depend on the processing

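No fold change of the 5 genes reversed its sign in 433 values computed under alternatives, and 409 of these stayed on the same side of the threshold. The values are not independent, since most alternatives share most of their libraries. A limit on adjusted p of 0.01 kept the main fold changes and could not reverse a sign. For aged against young rats fed AL, 5 genes were called, but 2 of the 4 tested with edgeR on only these groups. With the limit on adjusted p at 0.01 the number was 0. Leaving out 1 library gave 3 to 5. The exact permutation test of ranks, whose smallest p is 0.00216, called 0 of all genes, so its lack of calls is not particular to these 5. Its unadjusted p was 0.00866 for Fgg, 0.0152 for Fgb and Apoa2 and 0.0260 for Alb and Ttr, all above that smallest value. For aged CR against young rats, 0 genes were called, but 1, Alb, with DESeq2 on all libraries, with DESeq2 on these groups and with edgeR on these groups (adjusted p = 0.010, 0.00852 and 0.0400). Leaving out 1 library gave 0 to 1. Between the aged groups 0 were called, but 1, Apoa2, with DESeq2 on all libraries, with DESeq2 on these groups and with edgeR without rat 8 and library 8828 (adjusted p = 0.00824, 0.00320 and 0.0409). Leaving out 1 library gave 0 to 1. Without rats 8 and 9 and library 8828, the calls were 5, 0 and 0. That setting, and the counts of libraries above a group without TMM scaling, were chosen after seeing the data. The causes were not tested. A minimum of 10 counts in every library left none of the genes, and edgeR on either aged group with young rats alone did not keep Apoa2.

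The share of counts in rat 9, 0.105%, was 0.0235% without Alb and 0.149% without the 20 genes with most counts. The median ratio of library 8828 to rat 8, 0.327, was 0.108 after the group median was taken off, a value in which Ttr, Fgb, Fgg and Apoa2 lay below the median in both libraries. For Alb that ratio was 1.86, but 0.741 without TMM scaling. Counts of Ttr, Fgb, Fgg and Apoa2 limit the young rats, where 4 values were 0. Apoa2 was low in the aged CR libraries as well, with 5 to 17 counts, and had 5 in rat 11.

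Over all genes, 497, 290 and 202 were called in the 3 comparisons (aged AL with young, aged CR with young, aged CR with aged AL). DESeq2 called 985, 706 and 434, or 849, 952 and 429 on the groups compared, where edgeR called 258, 441 and 130. That limit left 124, 107 and 44, and the ranks 0, 0 and 0. The first comparison gave 330 with 10 counts in every library, and the last 129 with no filter. Without rat 8 and library 8828 the last 2 gave 455 and 477, and without rat 9 as well 438 and 383. Leaving out 1 library gave 288 to 678, 185 to 578 and 69 to 385. No paired analysis was possible because no rat number is shared between groups.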
